A study of Homo sapiens with 16 samples.

Results

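The transcripts of 9 factors of nonsense-mediated decay (NMD) were followed across RNA-seq libraries of human cells depleted of SETD2 or hnRNP L. These were UPF1, UPF2, UPF3A, UPF3B, SMG1, SMG5, SMG6, SMG8 and SMG9, chosen by gene name, and each matched 1 of the 58884 genes in the deposited table. The cells were wild type 293T, a line derived from human embryonic kidney that carries the SV40 large T antigen. All 6 RNA-seq libraries came from siRNA-treated cells harvested after 72 h, 2 with scramble siRNA, 2 with siRNA against SETD2 and 2 with siRNA against hnRNP L, and no library came from untreated cells. The labels number the libraries 1 and 2 for scramble and hnRNP L siRNA and 2 and 3 for SETD2 siRNA, and the study describes its replicates as biological and independent. Neither says whether a library is a separate culture or a separate transfection, and the p-values measure the spread between these libraries. The other 10 samples of the series, from ChIP of H3K36me3, were not analysed here.

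NMD removes transcripts on which the ribosome terminates in a context that the cell reads as premature, for example upstream of an exon junction or far from the poly(A) tail. UPF1, an RNA helicase, is phosphorylated by the kinase SMG1 while UPF2 and UPF3B link it to the exon junction complex, and phosphorylated UPF1 recruits SMG6, which cuts the transcript, or SMG5, which brings in deadenylation and decapping. Several of the mRNAs that encode these factors are themselves degraded by NMD, through long 3′ untranslated regions (3′ UTRs) or upstream reading frames, so that their levels are known to rise when the pathway is impaired. SETD2 is the methyltransferase for H3K36me3. hnRNP L is a splicing regulator that binds CA-rich RNA and that has been described to shield some transcripts from NMD when bound near the stop codon.

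Because hnRNP L prefers CA-rich RNA, the 3′ UTR of the canonical transcript of each factor in GENCODE release 44 was searched on the sense strand for CACACA. The motif was present in 4 of the 9, beside 37.4% of the 3′ UTRs of 12801 expressed protein-coding genes, whatever their length. The longest alternation of C and A in each of the 4 is shown in capitals within a 30-base window, 5′ to 3′ on the transcript strand and written with T as in the hg38 reference. The windows are on the minus strand at chr16:18808734-18808763 for SMG1, chr1:156250461-156250490 for SMG5, chr17:2060857-2060886 for SMG6 and chr19:43728295-43728324 for SMG9.
SMG1: ggtctgatgatCACACACAaaatgtaattc
SMG5: gactcatgcacgCACACAggagggaggcct
SMG6: cccagacttacCACACACccttcctgctgc
SMG9: ggggcaggtggCACACACtttgaaaccacg
The longest run was 8 bases, in SMG1. Counted from the first base after the stop codon, the window of SMG5 starts at base 97. Those of SMG6, SMG1 and SMG9 start farther away, at bases 606, 806 and 3272. No such run of at least 6 bases was found for UPF1, UPF2, UPF3A and SMG8, and UPF3B had a run of 6 bases that begins with A and does not contain CACACA. These matches describe the letters of the annotated 3′ UTRs, and binding was not measured.

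The 3′ UTRs themselves ranged widely. Those of SMG1 and SMG9 had 4709 and 3613 bases and were longer than 90.6% and 83.7% of the 3′ UTRs of the 12801 genes, whose median is 1322 bases. UPF1 had 1713 bases, SMG6 1649, SMG5 1363, UPF2 1276, UPF3A 900 and UPF3B 856. SMG8 had the shortest, with 228 bases, and its transcript has 4 exons, whereas that of SMG1 has 63.

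Each siRNA lowered its own target, measured in TPM, the abundance of a transcript corrected for its length and scaled to the same total in every library. SETD2 had 13.38 and 11.7 TPM with scramble siRNA and 4.24 and 4.91 TPM with SETD2 siRNA, a log2 fold change of -1.36 (standard error 0.132, limma adjusted p = 0.00603). This adjusted p was 0.162 without scramble replicate 1, 0.0820 without SETD2 replicate 2, 0.0791 with the replicate number as a block and 0.161 with no filter on low values, with log2 fold changes from -1.39 to -1.27. HNRNPL had 341.04 and 457.16 TPM with scramble siRNA and 25.04 and 28.81 TPM with hnRNP L siRNA, a log2 fold change of -3.85 (standard error 0.143, limma adjusted p = 8.48e-06). All 6 marker genes of an embryonic kidney line were above 1 TPM in every library, and of 7 markers of other cell types, 6 were below 0.5 TPM in every library and the other was COL1A1, with 2.83 to 5.17 TPM. The summed kidney-line markers were 239.71 to 256.2 TPM with scramble, 276.48 to 339 TPM with SETD2 and 482.8 to 509.25 TPM with hnRNP L siRNA, the last mostly NEFM, and the part of this in the values below was not tested.
TPM from RSEM hold no read counts from which a counting error could be had. They were compared as log2(TPM + 0.5) with limma, with all 6 libraries in 1 fit, and p-values were adjusted over all 16300 genes with a mean of at least 0.5 TPM. A gene passed the test at an adjusted p under 0.05. Leaving out 1 library leaves 1 in its group and weakens the test for all genes. In the comparisons with hnRNP L siRNA, fewer of all tested genes passed in every such fit. A call lost in this way is therefore not particular to its gene. In the deposited scaling the middle gene had a log2 fold change of 0.01 after SETD2 depletion, -0.08 after hnRNP L depletion and -0.10 between hnRNP L and SETD2 siRNA, and median-ratio scaling between libraries moves the last 2 values to 0.0006. After hnRNP L depletion 75.7% of the genes that passed the test were lower, and this share was 52.5% after median-ratio scaling. For sums and ratios, which were compared by an exact permutation test, the smallest two-sided p that 2 libraries against 2 allow is 0.333. In bulk RNA, fewer transcripts in every cell and fewer cells that express a gene cannot be told apart.

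All 9 factors were expressed in every library and passed the filter. TPM correct for transcript length, so levels can be set side by side between genes. With scramble siRNA, UPF3B had the highest mean level with 85.3 TPM, followed by SMG5 with 42.9, SMG9 with 40.9, UPF1 with 35.6, UPF3A with 27.3, UPF2 with 14.4, SMG6 with 12.9, SMG8 with 10.7 and SMG1 with 7.72 TPM. The libraries of neighbours in this order overlapped for SMG5 and SMG9, for UPF2 and SMG6, and for SMG6 and SMG8, so these pairs were not separated. UPF3B was first and the order from UPF3A down to SMG1 was the same with all 3 siRNAs, and the places that changed were those of SMG5, SMG9 and UPF1. Summed over the 9 factors, the level was 276.28 and 279.12 TPM with scramble, 294.05 and 306.19 TPM with SETD2 and 246.77 and 261.53 TPM with hnRNP L siRNA. The groups do not overlap in this sum (exact permutation test, two-sided p = 0.333 for each pair, the smallest possible), but most of the difference between SETD2 and scramble siRNA is UPF3B. Without UPF3B the sum was 189.54 and 195.27 TPM with scramble, 191.9 and 196.82 TPM with SETD2 and 172.64 and 184.46 TPM with hnRNP L siRNA, and SETD2 and scramble siRNA overlapped.

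**Figure D1:**
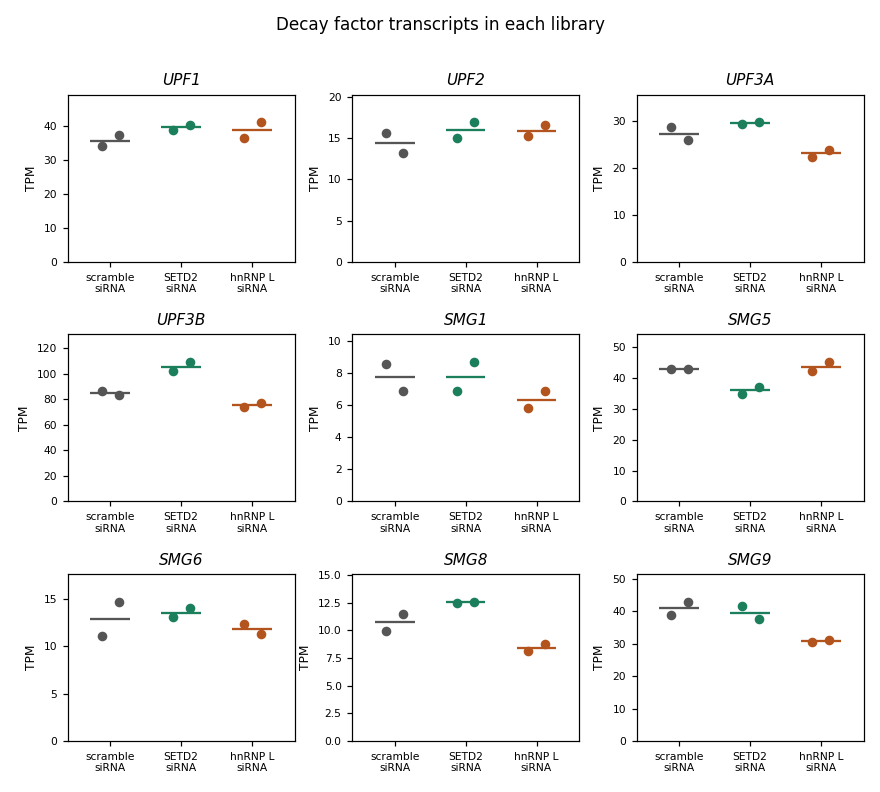
TPM of each of the 9 decay factors (vertical axes, each from 0) in the scramble, SETD2 and hnRNP L siRNA libraries. Points are single libraries and lines are the means of 2. UPF3B was higher with SETD2 siRNA (102.15 and 109.37 TPM) than in every other library, and SMG9 was lower with hnRNP L siRNA (30.43 and 31 TPM) than in every other library.

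After SETD2 depletion, none of the 9 factors passed the test with limma, beside 0.104% of all tested genes (0.0552% higher and 0.0491% lower). The study's own test, on read counts and not repeated here, reports more genes changed after SETD2 depletion. This small share therefore holds only for limma on TPM with genes of all biotypes, where 17 of 16300 passed. Among protein-coding and lncRNA genes only, 76 of 14596 passed with limma. At an unadjusted p under 0.05, UPF3B was higher and SMG5 was lower, 2 of 9 beside 13.1% of all tested genes. The SETD2 and scramble siRNA libraries did not overlap for 5 of 9 factors beside 43.5% of all tested genes, with UPF1, UPF3A, UPF3B and SMG8 higher (22.9% of all genes) and SMG5 lower (20.6%).
After hnRNP L depletion, SMG9 fell and no factor rose with limma, 1 of 9 beside 11.2% of all tested genes in either direction (2.72% higher and 8.48% lower). SMG8 and SMG9 reached an unadjusted p under 0.05, beside 28.4% of all tested genes. The groups did not overlap for 4 of 9 factors beside 56.6% of all tested genes, with UPF3A, UPF3B, SMG8 and SMG9 lower (37.8% of all genes) and none higher (18.8%).
When the depletions were compared directly, UPF3B and SMG8 were lower with hnRNP L siRNA than with SETD2 siRNA, 2 of 9 beside 10.8% of all tested genes (2.77% higher and 7.99% lower). At an unadjusted p under 0.05, UPF3A and SMG9 were also lower and SMG5 was higher, 5 of 9 beside 28.5% of all tested genes. The groups did not overlap for 6 of 9 factors beside 59.8% of all tested genes, with UPF3A, UPF3B, SMG6, SMG8 and SMG9 lower (41.2%) and SMG5 higher (18.6%).
No factor passed the test with a change above 1.5-fold, beside 0.104%, 6.76% and 6.84% of all tested genes after SETD2 depletion, after hnRNP L depletion and between them. Over the 9 factors the median log2 fold change was 0.12, -0.17 and -0.27 in these comparisons, beside 0.01, -0.08 and -0.10 for all tested genes. With 0, 1 and 2 calls, the counts are no result about the decay factors as a group. The comparisons against scramble siRNA share the same 2 scramble libraries, and the direct comparison shares its libraries with both.

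**Figure D2:**
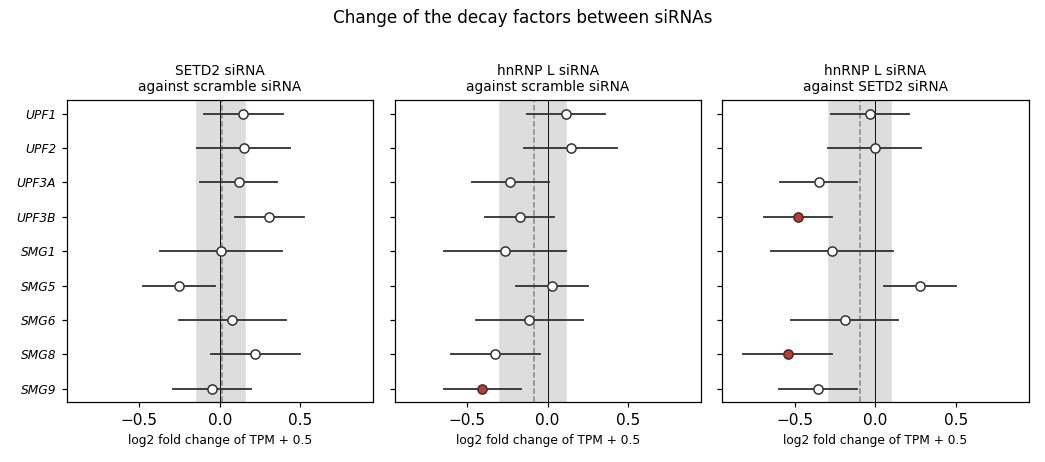
Log2 fold change of TPM + 0.5 for the 9 decay factors in the 3 comparisons, with 95% intervals from limma. Filled points have an adjusted p under 0.05 (SMG9 in the middle panel, UPF3B and SMG8 in the right panel), the grey band spans the middle 50% of all 16300 tested genes and the dashed line is their median.

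UPF1 (ENSG00000005007, chr19:18831959-18868230 of hg38, plus strand), the helicase at the centre of the pathway, had 33.97 and 37.23 TPM with scramble, 38.69 and 40.18 TPM with SETD2 and 36.25 and 40.92 TPM with hnRNP L siRNA. Both SETD2 siRNA libraries lay above both scramble libraries, and the hnRNP L siRNA libraries overlapped both other groups. Its log2 fold change was 0.15 after SETD2 depletion (standard error 0.107, limma adjusted p = 0.583) and 0.11 after hnRNP L depletion (standard error 0.107, adjusted p = 0.531). The 95% intervals ran from 0.935-fold to 1.31-fold of scramble after SETD2 depletion and from 0.913-fold to 1.28-fold after hnRNP L depletion.
UPF2 (ENSG00000151461, chr10:11920022-12043170, minus strand), which bridges UPF1 and the UPF3 proteins, had 15.62 and 13.16 TPM with scramble, 15.05 and 16.89 TPM with SETD2 and 15.27 and 16.53 TPM with hnRNP L siRNA. The 3 groups overlapped. Its log2 fold change was 0.15 after SETD2 depletion (standard error 0.127, limma adjusted p = 0.642) and 0.14 after hnRNP L depletion (standard error 0.127), and neither passed the test. The ratio of UPF2 to UPF1 within a library, which does not depend on the scaling between libraries, was 0.353 to 0.460 with scramble, 0.389 to 0.420 with SETD2 and 0.404 to 0.421 with hnRNP L siRNA, and overlapped in every comparison.

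UPF3B and UPF3A are paralogs that connect UPF2 with the exon junction complex, UPF3B being the more active in decay. UPF3B (ENSG00000125351, chrX:119834022-119852998, minus strand) had 86.74 and 83.85 TPM with scramble, 102.15 and 109.37 TPM with SETD2 and 74.13 and 77.07 TPM with hnRNP L siRNA. The 3 groups did not overlap, with SETD2 siRNA highest and hnRNP L siRNA lowest. The change was 1.24-fold after SETD2 depletion (log2 0.31, standard error 0.0938, 95% interval 1.07-fold to 1.44-fold, limma adjusted p = 0.244) and did not pass the test. After hnRNP L depletion the level was 0.887 of scramble (log2 -0.17, standard error 0.0938, limma adjusted p = 0.263). Between the depletions UPF3B was 1.40-fold lower with hnRNP L siRNA (log2 -0.48, standard error 0.0938, limma adjusted p = 0.0165). That call was lost when any of the 4 libraries of these groups was left out (SETD2 replicate 2 or 3, hnRNP L replicate 1 or 2), with adjusted p from 0.0872 to 0.153, while the log2 difference stayed between -0.53 and -0.43.
UPF3A (ENSG00000169062, chr13:114281601-114305817, plus strand) had 28.66 and 25.87 TPM with scramble, 29.45 and 29.72 TPM with SETD2 and 22.29 and 23.91 TPM with hnRNP L siRNA. Its groups were ordered like those of UPF3B and did not overlap. The log2 fold change was 0.12 after SETD2 depletion (limma adjusted p = 0.660) and -0.23 after hnRNP L depletion (adjusted p = 0.185), and the difference between the depletions was -0.35 (standard error 0.105, limma adjusted p = 0.0668). UPF3B was 3.03 and 3.24 times as abundant as UPF3A with scramble, 3.47 and 3.68 times with SETD2 and 3.33 and 3.22 times with hnRNP L siRNA. This ratio was higher in both SETD2 siRNA libraries than in the other 4 (exact permutation test, two-sided p = 0.333 against either group).

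SMG1, SMG8 and SMG9 form the kinase complex that phosphorylates UPF1, with SMG8 and SMG9 binding the kinase and restraining it. SMG9 (ENSG00000105771, chr19:43727983-43754962, minus strand) had 38.79 and 42.96 TPM with scramble, 41.56 and 37.51 TPM with SETD2 and 30.43 and 31 TPM with hnRNP L siRNA. Both hnRNP L siRNA libraries lay below the other 4, and scramble and SETD2 siRNA overlapped. SMG9 fell 1.32-fold after hnRNP L depletion (log2 -0.40, standard error 0.106, limma adjusted p = 0.0431), while SETD2 depletion left it at a log2 difference of -0.05 from scramble (standard error 0.106, adjusted p = 0.879). Between hnRNP L and SETD2 siRNA the difference was -0.36 (limma adjusted p = 0.0648). The call was lost when any 1 of the 6 libraries was left out, in fits that called fewer of all tested genes. The log2 fold change then stayed between -0.48 and -0.33, and without a SETD2 siRNA library it was unchanged. After median-ratio scaling the call was also lost, with a log2 fold change of -0.31 (limma adjusted p = 0.0848).
SMG8 (ENSG00000167447, chr17:59209400-59215239, plus strand) had 9.95 and 11.46 TPM with scramble, 12.44 and 12.59 TPM with SETD2 and 8.1 and 8.75 TPM with hnRNP L siRNA. As for UPF3B, the groups did not overlap, with SETD2 siRNA highest and hnRNP L siRNA lowest. The log2 fold change was 0.22 after SETD2 depletion (standard error 0.122, limma adjusted p = 0.464) and -0.33 after hnRNP L depletion (standard error 0.122, adjusted p = 0.120). Between the depletions SMG8 was 1.46-fold lower with hnRNP L siRNA (log2 -0.55, standard error 0.122, limma adjusted p = 0.0267), a call lost without SETD2 replicate 2 or 3 or hnRNP L replicate 1 or 2 (adjusted p from 0.105 to 0.186). SMG8 overlaps a further protein-coding annotation on the same strand, ENSG00000265303, to which some of its reads could have been assigned.
SMG1 (ENSG00000157106, chr16:18804860-18926408, minus strand), the kinase, had the lowest level of the 9 in every group, with 8.56 and 6.88 TPM with scramble, 6.86 and 8.68 TPM with SETD2 and 5.79 and 6.88 TPM with hnRNP L siRNA. The groups overlapped in all comparisons. Its log2 fold change was 0.01 after SETD2 depletion (standard error 0.166, limma adjusted p = 0.993) and -0.26 after hnRNP L depletion (standard error 0.166, adjusted p = 0.338). The interval after hnRNP L depletion, from 0.641-fold to 1.08-fold, spans both no change and a decrease as large as that of SMG9, so the 2 cannot be told apart with these libraries. An antisense lncRNA, ENSG00000260017, overlaps SMG1. There were 4.53 and 6.24 SMG9 transcripts per SMG1 transcript with scramble, 6.06 and 4.32 with SETD2 and 5.26 and 4.51 with hnRNP L siRNA, without a separation of the groups. Reads of SMG1 and its pseudogene copies, given below, can be assigned to one another, so its rank and these ratios are uncertain. SMG1 and the 7 copies together had 32.45 and 26.81 TPM with scramble, 23.74 and 27.2 TPM with SETD2 and 21.3 and 25.18 TPM with hnRNP L siRNA.

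SMG5 and SMG6 act after UPF1 phosphorylation, SMG6 as the endonuclease and SMG5 as an adaptor. SMG5 (ENSG00000198952, chr1:156249224-156282825, minus strand) had 42.85 and 42.97 TPM with scramble, 34.76 and 37.22 TPM with SETD2 and 42.19 and 45.16 TPM with hnRNP L siRNA. Both SETD2 siRNA libraries lay below the other 4, whereas those of UPF3B lay above. The log2 fold change of SMG5 was -0.25 after SETD2 depletion (standard error 0.0984, limma adjusted p = 0.332) and 0.02 after hnRNP L depletion (standard error 0.0984, adjusted p = 0.900), and neither passed the test. Between the depletions the difference was 0.28 (standard error 0.0984, limma adjusted p = 0.106). After median-ratio scaling and after quantile normalization it was 0.39 (adjusted p = 0.0236) and 0.38 (adjusted p = 0.0267).
The ratio of UPF3B to SMG5, chosen after the values were seen, needs no scaling between libraries. It was 2.02 and 1.95 with scramble, 2.94 in each SETD2 siRNA library and 1.76 and 1.71 with hnRNP L siRNA. Since these genes were picked for lying on opposite sides of scramble with SETD2 siRNA, that difference is a description and was not tested.
SMG6 (ENSG00000070366, chr17:2059839-2303785, minus strand) had 11.14 and 14.74 TPM with scramble, 13.09 and 14.03 TPM with SETD2 and 12.32 and 11.31 TPM with hnRNP L siRNA. The scramble libraries spanned the values of all others. Its log2 fold change was 0.08 after SETD2 depletion (standard error 0.146, limma adjusted p = 0.852) and -0.11 after hnRNP L depletion (standard error 0.146, adjusted p = 0.650). Both hnRNP L siRNA libraries lay below both SETD2 siRNA libraries, with a log2 difference of -0.19 (limma adjusted p = 0.427). The gene body overlaps 4 annotated genes on the same strand and 10 on the opposite strand, among them SRR and HIC1, and the sources used here do not say whether reads were counted by strand.

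SMG1 has partial duplicates on chromosome 16 that are annotated as the pseudogenes SMG1P1 to SMG1P7, so reads of the gene and its copies can be assigned to one another and the values of each are uncertain. SMG1P7 also overlaps the annotation ENSG00000291219 on its own strand. Together the 7 copies had 23.89 and 19.93 TPM with scramble, more than SMG1 itself, 16.88 and 18.52 TPM with SETD2 and 15.51 and 18.3 TPM with hnRNP L siRNA. Most of the difference lay in SMG1P7 (ENSG00000261556, chr16:70219870-70246610, minus strand), with 5.29 and 4.56 TPM with scramble, 2.16 and 2.62 TPM with SETD2 and 0.92 and 1.12 TPM with hnRNP L siRNA. The 3 groups did not overlap. SMG1P7 fell 3.57-fold on the log2(TPM + 0.5) scale after hnRNP L depletion (log2 -1.84, standard error 0.176, limma adjusted p = 0.00136), and it still passed the test when any 1 of the 6 libraries was left out. With SETD2 siRNA its log2 difference from scramble was -0.91 (standard error 0.176, limma adjusted p = 0.125), which did not pass. Between the depletions it was lower with hnRNP L siRNA by a log2 difference of -0.93 (standard error 0.176, limma adjusted p = 0.0155), a call lost without SETD2 replicate 2 or 3 or hnRNP L replicate 1 or 2 (adjusted p from 0.0666 to 0.121). Relative to SMG1 in the same library, SMG1P7 had 0.618 and 0.663 with scramble, 0.315 and 0.302 with SETD2 and 0.159 and 0.163 with hnRNP L siRNA.
The other copies did not pass the test in any comparison. SMG1P1, SMG1P2, SMG1P3, SMG1P4 and SMG1P5 had mean levels over the 6 libraries of 2.35, 1.77, 6.59, 1.65 and 3.58 TPM. SMG1P6 had at most 0.22 TPM and was under the filter. Of the UPF3A pseudogenes, UPF3AP2 had 0.35 to 0.94 TPM and passed the filter without passing the test, and UPF3AP1 and UPF3AP3 were under it.

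**Figure D3:**
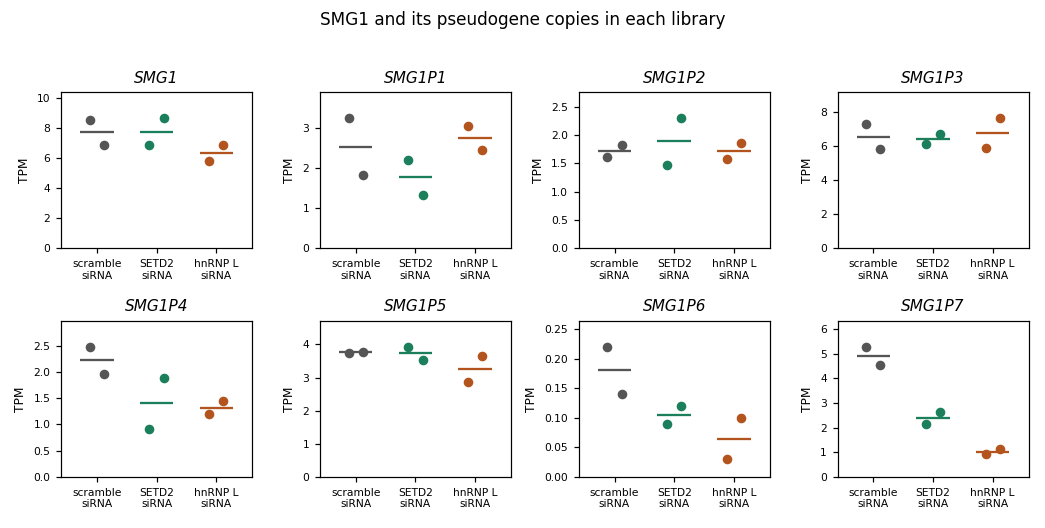
TPM of SMG1 and its 7 annotated pseudogene copies (vertical axes, each from 0) in the scramble, SETD2 and hnRNP L siRNA libraries. Points are single libraries and lines are the means of 2. SMG1P7 was highest with scramble (5.29 and 4.56 TPM) and lowest with hnRNP L siRNA (0.92 and 1.12 TPM), whereas SMG1 overlapped between the groups.

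Around the core factors, 71 further genes were examined, and all of them passed the filter. None passed the test after SETD2 depletion with limma. After hnRNP L depletion 1 rose and 4 fell, beside 2.72% and 8.48% of all tested genes. This balance depends on the scaling, since with the pseudogenes included 1 was higher and 5 were lower as deposited, and 8 were higher and 2 lower after median-ratio scaling. The calls of MAGOHB and EDC3 were lost when any 1 of the 6 libraries was left out. Those of CDKN1A and SRSF3 were lost when any library other than scramble replicate 1 was left out, and that of SNHG1 when any library other than scramble replicate 2 was. With the replicate number as a block all 5 calls were lost, with limma adjusted p from 0.0585 (CDKN1A) to 0.118 (SNHG1).
In the exon junction complex, which marks spliced junctions and is the platform for UPF3B, 1 of 9 genes fell after hnRNP L depletion. MAGOHB, one of the copies of the MAGOH subunit, had 41.01 and 37.86 TPM with scramble, 53.81 and 54.43 TPM with SETD2 and 25.06 and 30.53 TPM with hnRNP L siRNA. It fell after hnRNP L depletion by a log2 fold change of -0.50 (standard error 0.118, limma adjusted p = 0.0308). Without 1 of the 6 libraries its adjusted p was 0.0647 to 0.226. The median log2 fold change of the 9 genes was 0.18 after SETD2 and 0.14 after hnRNP L depletion, beside 0.01 and -0.08 for all tested genes.
Of 7 genes for the assembly of SMG1 and related kinases (TELO2, TTI1, TTI2, RUVBL1, RUVBL2, RPAP3 and PIH1D1), none passed the test in any comparison. Their median log2 fold change was 0.14 after SETD2 and 0.12 after hnRNP L depletion. Of 7 accessory decay factors, among them the helicase DHX34 and NBAS, none passed, with medians of 0.03 and -0.08. Of 6 genes of translation termination and poly(A) binding, among them the release factors ETF1 and GSPT1, none passed, with medians of -0.03 and 0.04.
Of 15 genes for deadenylation, decapping and exonucleolytic decay, EDC3, an enhancer of decapping, fell after hnRNP L depletion, and the medians were 0.04 after SETD2 and -0.07 after hnRNP L depletion. EDC3 had 28.02 and 33.99 TPM with scramble, 31.3 and 29.58 TPM with SETD2 and 21.59 and 22.74 TPM with hnRNP L siRNA (log2 -0.47 after hnRNP L depletion, standard error 0.119, limma adjusted p = 0.0395). Without 1 of the 6 libraries its adjusted p was 0.0509 to 0.229.

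The transcripts that NMD is known to act on were described at gene level only, where stable and unstable isoforms are summed. Of 17 such genes, SNHG1 rose and CDKN1A fell after hnRNP L depletion, and several of the 17, such as ATF4 and DDIT3, also respond to cell stress. SNHG1, a host transcript of small nucleolar RNAs, had 229.79 and 239.43 TPM with scramble, 181.36 and 180.86 TPM with SETD2 and 297.76 and 300.39 TPM with hnRNP L siRNA. Its 3 groups did not overlap, and it rose after hnRNP L depletion by a log2 fold change of 0.35 (standard error 0.0903, limma adjusted p = 0.0416). CDKN1A, which encodes the cell cycle inhibitor p21, had 15.74 and 21.04 TPM with scramble, 29.43 and 26.47 TPM with SETD2 and 11.68 and 12.57 TPM with hnRNP L siRNA. It fell after hnRNP L depletion by a log2 fold change of -0.57 (standard error 0.147, limma adjusted p = 0.0417). Without 1 of the 6 libraries the adjusted p was 0.0435 to 0.230 for SNHG1 and 0.0465 to 0.234 for CDKN1A. With SETD2 siRNA the log2 fold changes were -0.37 for SNHG1 and 0.60 for CDKN1A (limma adjusted p = 0.194 for each), which did not pass. The median log2 fold change of the 17 genes was 0.02 after hnRNP L depletion and -0.00015 after SETD2 depletion, beside -0.08 and 0.01 for all tested genes.
Of 10 genes with poison exons or isoforms coupled to decay, SRSF3 fell after hnRNP L depletion. This splicing factor had 155.69 and 187.33 TPM with scramble, 196.89 and 186.32 TPM with SETD2 and 130.32 and 119.09 TPM with hnRNP L siRNA (log2 -0.45, standard error 0.115, limma adjusted p = 0.0393). Without 1 of the 6 libraries its adjusted p was 0.0446 to 0.215. The median of the 10 genes was 0.14 after SETD2 and -0.00227 after hnRNP L depletion. Between hnRNP L and SETD2 siRNA, 5 of the 71 genes were lower (MAGOHB, EDC3, CDKN1A, SRSF3 and SRSF7) and 2 were higher (SNHG1 and GAS5), beside 7.99% and 2.77% of all tested genes. GAS5 and SRSF7 are named after their values were seen.

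**Figure D4:**
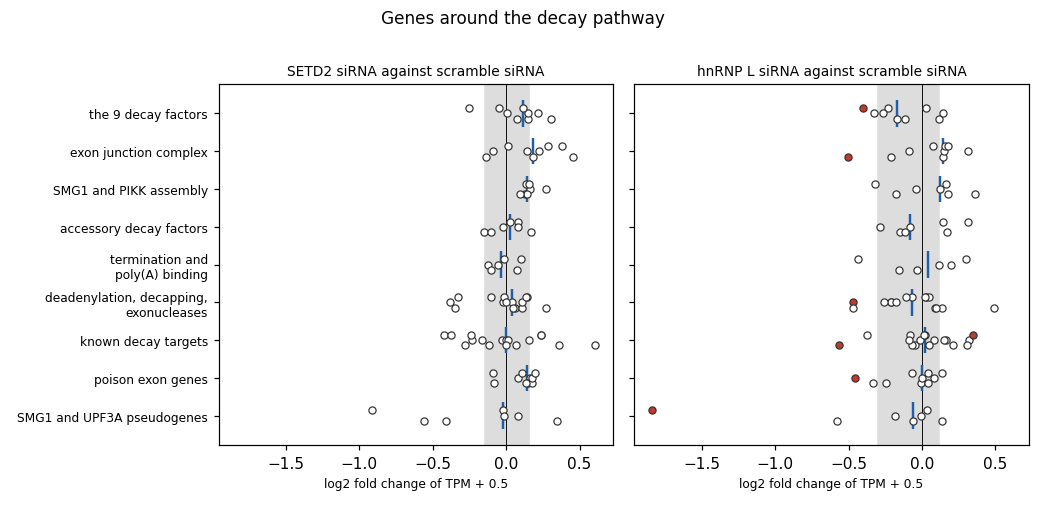
Log2 fold change of TPM + 0.5 for the 9 decay factors and the surrounding gene lists after SETD2 depletion (left) and hnRNP L depletion (right). Each point is a gene, filled where the adjusted p was under 0.05, blue lines are list medians and the grey band spans the middle 50% of all 16300 tested genes. No gene is filled on the left, and SMG1P7 lies farthest to the left in both panels.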

How the data were processed

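RNA-seq of 6 libraries was used, which per the labels were made after ribosomal RNA removal and poly(A) selection. The authors aligned the reads to hg38 (Ensembl 96 gene models) with STAR 2.6.1c, then ran RSEM 1.3.0 for the gene-level TPM that were deposited. TPM keep no read counts, and the sequencing depths that the study lists were not used here. The authors' edgeR tests, on counts of protein-coding and lncRNA genes, were not used.

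The deposited values were transformed to log2(TPM + 0.5). The 16300 genes with a mean of at least 0.5 TPM were tested in limma 3.58.1 (R 4.3.3) with 1 mean per siRNA, empirical Bayes moderation with a variance trend and Benjamini-Hochberg adjustment. The fit was tested on simulated data for hnRNP L against scramble siRNA, with 50 changed genes at each size of change. It recovered 0 of 50 genes changed 1.25-fold and 4 of 50 changed 1.5-fold. At 2-fold it recovered 30 of 50 and at 3-fold 44 of 50, with 3 false calls. The largest change of a decay factor was 1.46-fold (SMG8 between the depletions). A factor that did not pass the test is therefore not shown to be unchanged. Genes of all biotypes were tested, since 93 had none in GENCODE release 44, and the authors' restriction was an alternative. Others changed the pseudocount, filter, scaling, variance model, libraries or replicate block. Coordinates and 3′ UTRs come from GENCODE release 44 on hg38, a later annotation than the authors'. Ratios were compared in Python 3.11.15 with SciPy 1.17.1.

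The members and lists were chosen with earlier results of these data known, and 1 listed gene is not reported here. Named genes are the 9 factors, the siRNA targets, list genes that passed the test against scramble, pseudogenes of SMG1 and UPF3A, and the 5 genes with the most similar profile. Scramble and hnRNP L siRNA share the numbers 1 and 2, but the differences between their libraries correlated with an r of -0.126 across genes, so they were not taken as pairs.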

Additional observations from a re-analysis of the deposited data

How the results depend on the processing

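TPM without read counts, 2 libraries a group and the scaling between libraries limit these results. For the 9 factors in 3 comparisons, 18 alternatives each gave 486 log2 fold changes. Of these, 427 kept the direction and the side of the threshold, 28 lost the call, 4 gained it and 27 changed sign, and no value that changed sign had passed the test. The 427 do not measure robustness, since values that had not passed could lose no call. Alternatives that changed only the tested genes, the variance model or the third group could not move a log2 fold change. All 28 losses were of SMG9 after hnRNP L depletion (13 of 18 alternatives) and of UPF3B (8) and SMG8 (7) between the depletions. After SETD2 depletion 0 factors passed under every alternative. The single lower factor after hnRNP L depletion, SMG9, became 0 with no filter on low values, median-ratio scaling, quantile normalization, no variance trend, the replicate block, the crossed block, only the 2 groups compared, a fold change above 1.5 and without each library in turn (range 0 to 0), and its adjusted p ranged from 0.0201 to 0.229 over the alternatives. Between hnRNP L and SETD2 siRNA, 1 factor (SMG5) was higher after median-ratio scaling and 1 after quantile normalization. The 2 lower factors became 0 with no filter, the replicate block, the crossed block and a fold change above 1.5, 1 with no variance trend, 4 among protein-coding and lncRNA genes only (adding UPF3A and SMG9), and 0 to 2 without 1 library. The causes were not tested.

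With the replicate number as a block, 0 factors passed in any comparison, and the adjusted p was 0.0861 for SMG9 after hnRNP L depletion and 0.231 for UPF3B and 0.296 for SMG8 between the depletions. Since SETD2 and the other siRNAs share only the number 2, the pairing tells little there. The block called 844 genes after hnRNP L depletion. The crossed numbering, chosen after seeing the data, called 2261, against 1826 without a block.

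Log2 fold changes that changed sign were small. For SMG1 after SETD2 depletion they were -0.0079 with median-ratio scaling, -0.085 with TPM rescaled without mitochondrially encoded genes, -0.14 with the replicate block, -0.020 with the crossed block and -0.15 to 0.17 without 1 library. For SMG6 after SETD2 depletion they were -0.016 without mitochondrial genes, -0.039 with the block, -0.098 with the crossed block and -0.12 to 0.27 without 1 library, and for SMG9 -0.12 to 0.026 without 1 library. After hnRNP L depletion SMG5 had -0.024 without mitochondrial genes and -0.024 to 0.073 without 1 library, and SMG6 had 0.015 after quantile normalization and -0.31 to 0.080 without 1 library. Between the depletions UPF1 had 0.076 with median-ratio scaling, 0.077 with quantile normalization, 0.015 without mitochondrial genes, 0.069 with the block and -0.12 to 0.053 without 1 library. UPF2 had 0.10, 0.11, 0.043 and 0.044 under the same settings and -0.086 to 0.076 without 1 library.

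Over all tested genes, calls ranged from 1 to 86 after SETD2 depletion (17 as reported), from 172 to 2506 after hnRNP L depletion (1826) and from 96 to 2426 between them (1753). The lower share of calls between hnRNP L and SETD2 siRNA was 74.3%, and 50.7% with quantile normalization. Among the further genes and pseudogenes, 1 was higher and 5 were lower after hnRNP L depletion, against 8 and 2 with median-ratio scaling and 0 and 1 (SMG1P7) with the replicate block.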

Other observations

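The profile of the 9 decay factors, taken as the mean of their centred log2 levels over the 6 libraries, was highest with SETD2 siRNA (0.06 and 0.14), intermediate with scramble siRNA (0.01 and 0.03) and lowest with hnRNP L siRNA (-0.16 and -0.07). Not every factor followed this mean. After hnRNP L depletion UPF1, UPF2 and SMG5 had positive log2 fold changes (0.11, 0.14 and 0.02). After SETD2 depletion SMG5 and SMG9 had negative ones (-0.25 and -0.05). The middle of all tested genes was also lower after hnRNP L depletion, at -0.08, and this shift was not taken out of the profile. Among 14582 other genes with a mean of at least 1 TPM, the most similar profiles were those of MON1B, HMGB2, PLCL2, MAF and MIER3, with Pearson's r from 0.995 to 0.998 over the 6 libraries. HMGB2, a chromatin protein of dividing cells, had 380.71 and 394.98 TPM with scramble, 418.71 and 480.95 TPM with SETD2 and 289.41 and 324.18 TPM with hnRNP L siRNA. With 6 libraries and this many genes, correlations this high describe levels that vary alike over these libraries and no more.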
